A study of Durio zibethinus with 9 samples.

Results

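The genes described here were high in young and mature durian pulp and low in ripe pulp. Durian (Durio zibethinus) is a tropical fruit whose edible pulp is the aril around the seed, and all samples were pulp of the cultivar D24, a clonally propagated variety. The members were selected on measured values, so their low level at ripening is a description and carries no test. A gene was a member when the lowest of its 6 young and mature libraries was at least 5 FPKM and at least 3 times the highest of its 3 ripe libraries. FPKM is an expression level, the number of mapped fragments scaled to transcript length and to the size of the library, and a gene that a library does not list was taken as 0. By this rule 38 of 39453 reference genes were members, and none of the 5 genes set aside by name in the rule met both thresholds.

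The young stage, YS, was sampled at 90 days after anthesis. The mature stage, MS, followed at 120 days, and RS, ripe pulp, at 127 days. Each stage had 3 libraries of polyA RNA. No stage carried a treatment. RS pulp came from mature fruits that were left to ripen at room temperature after harvest, so fruit age and detachment from the tree cannot be told apart at RS. The study describes the libraries of a stage as biological triplicates. The labels do not say which fruits or trees a library came from, so the error behind each p-value is the scatter among the libraries at hand and may be technical. In bulk pulp, fewer cells of a type and less RNA per cell cannot be told apart.

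In climacteric fruit, which ripen with a burst of ethylene, ripening is known for the turning on of wall-softening, sugar and aroma genes. The same switch is also known for the winding down of growth and photosynthetic functions carried by the young fruit. Of the 38 members, 31 have no product name in the sources used here.

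Some facts of the whole series touch these genes. The bases implied by the deposited coverage and FPKM ranged from 2350 to 3553 Mb per library, lowest in RS library 03. That library also stood apart in scale: its median-ratio size factor was 0.479, against 1.03 to 1.21 in the other 8 libraries. The MS libraries were close to each other, with a median ratio of highest to lowest library of 1.09 over the 8748 genes at or above 5 FPKM in all YS and MS libraries, against 1.78 among YS libraries. As a check of tissue, 11 ripening pulp genes, all named as ACC oxidase or methionine gamma-lyase, were summed. They came to 201 to 1154 FPKM at YS, 2230 to 2269 FPKM at MS and 2036 to 2263 FPKM at RS. Polygalacturonase, a wall-softening type also looked for, was not among them, although the study reports such a gene as rising from MS to RS. Most of each sum was LOC111308047, a methionine gamma-lyase-like gene of sulfur volatile formation, with 1086, 142 and 293 FPKM at YS, 2192, 2187 and 2153 FPKM at MS and 2154, 2158.5 and 1954 FPKM at RS. Not all the pulp genes shared its course: LOC111314546, an ACC oxidase of ethylene synthesis, had 38.8, 24.5 and 52.4 FPKM at YS, 1.40, 0.717 and 1.03 FPKM at MS and 22.9, 27.6 and 8.28 FPKM at RS. The 1 seed marker found was at or below 0.597 FPKM in all 9 libraries, close to 0. The 3 markers of lignified and vascular tissue summed to 4.43 to 5.87 FPKM at YS, 2.96 to 3.52 FPKM at MS and 0.256 to 4.21 FPKM at RS. These sums joined opposite courses: the laccase-4-like gene LOC111301337 had 3.56 to 5.35 FPKM at YS and at most 0.123 FPKM at RS, the cellulose synthase gene LOC111293564 had 0.105 to 0.834 FPKM at YS and 4.09, 3.84 and 0.166 FPKM at RS, and the third was at or near 0 throughout. Their part in the values below was not tested. None of the green tissue markers looked for (chlorophyll a-b binding proteins, photosystem proteins of the reaction centres and the small chain of RuBisCO) was among the named genes.

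Summed over the 38 genes, expression was 3942, 5058 and 3348 FPKM in the YS libraries, 2496, 2479 and 2485 FPKM in the MS libraries and 407, 408 and 311 FPKM in the RS libraries. As a share of all reference FPKM this was 0.615 to 0.867% at YS, 0.431 to 0.434% at MS and 0.0595 to 0.0698% at RS. The median member stood at 25.2 FPKM in YS, 17.14 FPKM in MS and 1.58 FPKM in RS libraries. A few abundant genes carried most of this sum, since the 10 most abundant members held 80.2% of the summed mean FPKM over YS and MS.

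**Figure D1:**
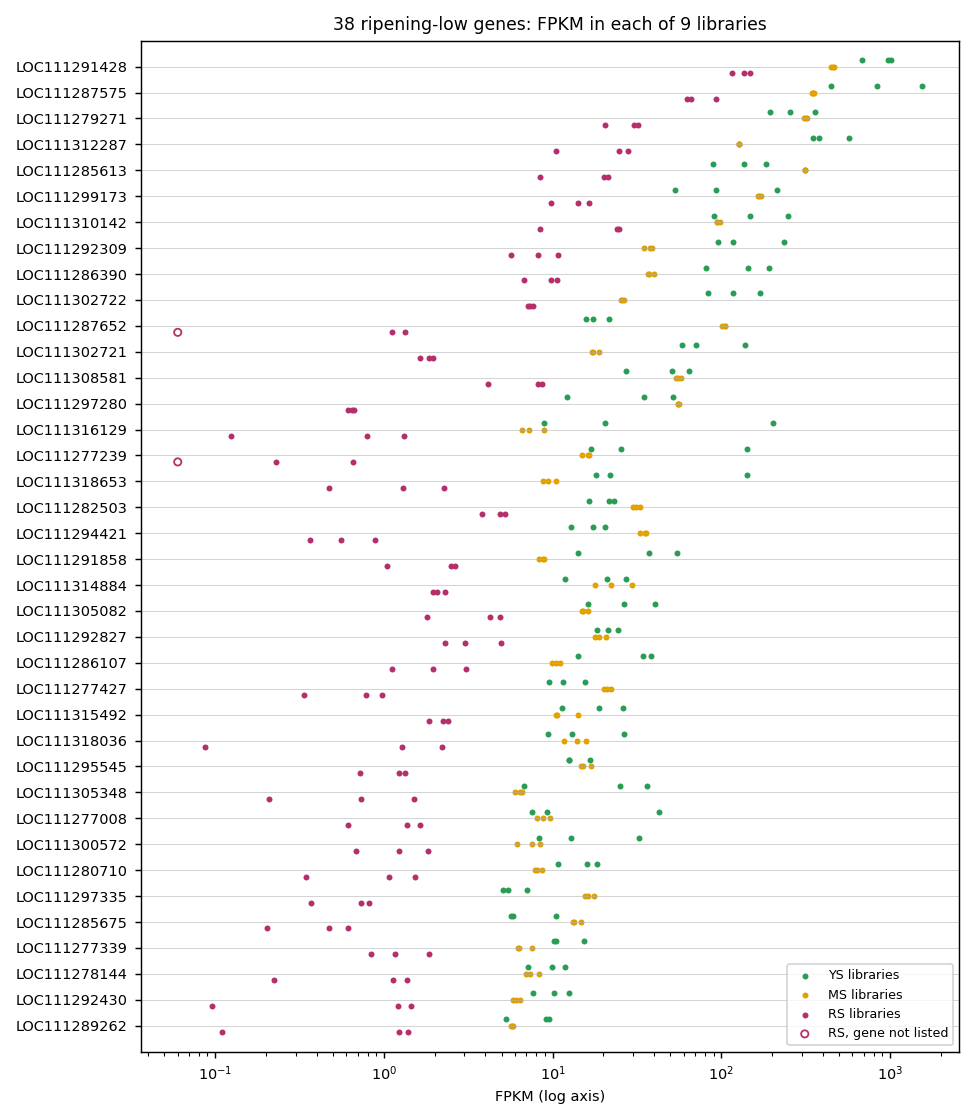
FPKM (log axis) of the 38 genes in each YS, MS and RS library, 1 point per library, ordered by their mean over YS and MS; an open circle marks a library that does not list the gene. The RS points lie left of all YS and MS points in every row, as the selection requires, and the 3 MS points nearly coincide in most rows.

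The working name for these genes, switched off, fitted few of them. All 3 RS libraries were under 1 FPKM for 6 members, under 2 FPKM for 18 and under 5 FPKM for 26, whereas 10 members kept at least 5 FPKM in every RS library and 4 kept at least 10 FPKM. No member was unlisted in all RS libraries, and 2 were unlisted in RS library 03 alone. The genes are therefore called ripening-low here. The ratio of the lowest YS or MS library to the highest RS library ran from 3.02 to 22.6 with a median of 4.10; it reached 5 in 14 members and 10 in 4. Among all 8748 genes at or above the 5 FPKM floor, of which the members are 0.434%, the median of this ratio was 0.664 and 19.1% of the genes had a ratio above 1.

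**Figure D2:**
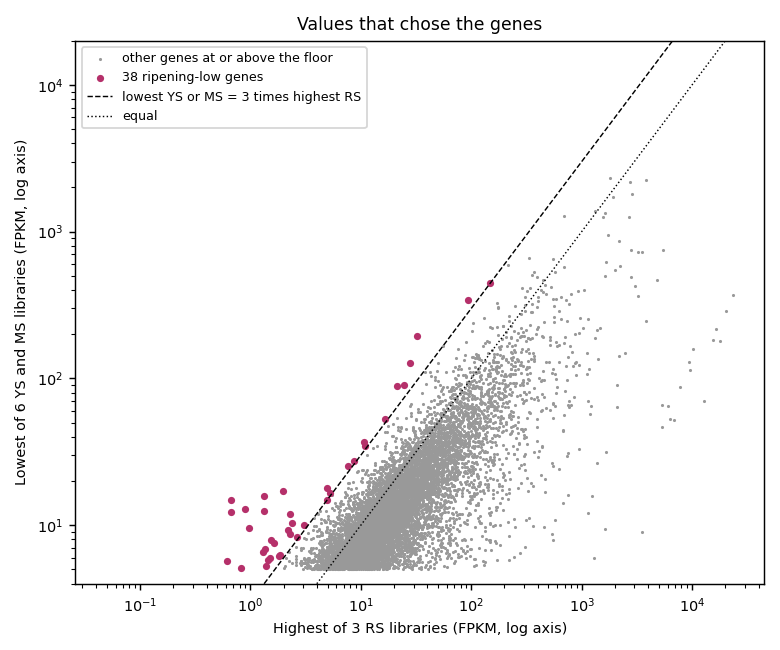
Lowest of the 6 YS and MS libraries against the highest of the 3 RS libraries (both FPKM, log axes) for the 8748 genes at or above 5 FPKM in all YS and MS libraries. The 38 ripening-low genes lie on or above the dashed line at a ratio of 3, and most other genes lie below the dotted line of equality.

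Genes just inside the fold limit were LOC111291428 at a ratio of 3.02, LOC111305082 at 3.04 and LOC111308581 at 3.14. Just outside it were LOC111274698 at 2.98, LOC111287321 at 2.97 and LOC111304541 at 2.96. The limits therefore cut through a continuous range. The 3 members nearest the floor, LOC111297335, LOC111289262 and LOC111285675, had lowest values of 5.07, 5.28 and 5.70 FPKM, and LOC111306388 was left under the floor at 4.27 FPKM although its highest RS library was at 0.0838 FPKM. In all, 3471 genes met the fold limit but not the floor, and 63 of them had at least 1 FPKM in all YS and MS libraries.

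The members with a product name come first, in the order of metabolism, membrane transport, signalling and regulation, structural proteins and proteins of unclear role. Names were taken from the study's own tables, which listed genes chosen on these samples, so which members carry a name is not independent of how they moved. Named members made up 7 of the 38, or 18.4%, against 2.20% of all tested genes. At MS against YS, 21.7% of the 475 named tested genes rose and 39.2% fell, against 5.43% and 10.2% of all 21598 tested genes, and the counts given for groups of named genes stand beside those shares.

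LOC111297280, the only named aldolase, encodes a fructose-bisphosphate aldolase 1, chloroplastic-like protein. Plastid aldolase joins triose phosphates into fructose bisphosphate in the Calvin cycle and works in plastid glycolysis and starch metabolism. The gene (NW_019167849.1, positions 21150949 to 21153092, plus strand) had 35.0, 52.0 and 12.2 FPKM at YS, 56.5, 55.2 and 55.5 FPKM at MS and 0.643, 0.613 and 0.666 FPKM at RS. Its RS libraries were close together in FPKM, with RS library 03 the highest of them. The lowest YS or MS library was 18.4 times the highest RS library, and 7.98 times after division by size factors. All MS libraries lay above all YS libraries, but the log2 fold change of 0.95 ± 0.48 (SE) did not pass (limma, adjusted p = 0.157). It was the only member among 24 tested genes named for photosynthesis or the chloroplast, of which 6 rose and 4 fell at MS against YS, and 5 had every RS library below every YS and MS library, as did 10.9% of named tested genes and 15.6% of all tested genes.

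LOC111294421 is named aquaporin SIP1-1-like. SIP aquaporins are small basic membrane channels, and in Arabidopsis they sit in the endoplasmic reticulum. The values were 12.9, 20.6 and 17.34 FPKM at YS, 35.3, 33.1 and 36.0 FPKM at MS and 0.365, 0.890 and 0.553 FPKM at RS, so every MS library was above every YS library and RS library 01 was the lowest of all. The MS over YS log2 fold change was 1.02 ± 0.21, short of the fold limit of 1.5 (limma, adjusted p = 0.0104). The RefSeq table of a second durian assembly (ASM4732523v1) lists this locus as a transcribed pseudogene. Of 26 tested transporter genes, 9 rose and 8 fell at MS against YS, and this one was the only member.

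LOC111285675 encodes a leucine-rich repeat receptor-like protein kinase, a class of cell-surface receptors that pass peptide, hormone or pathogen signals into the cell. It had 5.70, 10.5 and 5.81 FPKM at YS, 13.2, 14.8 and 13.5 FPKM at MS and 0.473, 0.615 and 0.203 FPKM at RS. The MS libraries were all above the YS libraries, at a log2 fold change of 0.88 ± 0.25 that did not reach the fold limit (limma, adjusted p = 0.0314). Other named receptors of this class had other patterns. LOC111274880 fell at MS (log2 fold change -4.55, limma, adjusted p = 0.00751), with 0.0898, 0.0931 and 0.0932 FPKM at MS, against 5.01, 81.5 and 32.7 FPKM at YS. LOC111316688 had at most 0.0590 FPKM at YS and at most 0.0132 FPKM at MS, and 2.41 to 3.75 FPKM at RS. Among 34 tested kinase genes 7 rose and 14 fell at MS against YS.

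LOC111297335, a trihelix transcription factor PTL-like gene, was the only ripening-low gene among 75 tested genes named as transcription factors, of which 18 rose and 38 fell at MS against YS. PETAL LOSS (PTL) in Arabidopsis is a DNA-binding regulator that restrains growth between sepals and shapes petal formation. FPKM values were 5.07, 7.07 and 5.48 at YS, 15.5, 17.7 and 16.2 at MS and 0.736, 0.815 and 0.371 at RS. Every MS library was above every YS library, and the log2 fold change of 1.36 ± 0.19 was just within the fold limit (limma, adjusted p = 0.00249). The lowest YS library stood only slightly above the floor of the rule.

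A pair of named members encode proline-rich proteins. LOC111277239, named as a proline-rich protein DC2.15-like, belongs to a family first described with DC2.15, a carrot protein with a proline-rich stretch and a lipid-transfer-like domain. It had 25.4, 143 and 16.98 FPKM at YS, 16.4, 16.3 and 14.9 FPKM at MS and 0.660 and 0.229 FPKM in RS libraries 01 and 02, and was not listed in RS library 03. Its ratio of 22.6 was the highest of all members, and the YS level rested on library 02, which was far above the others. The study lists this gene both as falling and as rising from MS to RS. The log2 fold change at MS against YS was -1.28 ± 0.72 and did not pass (limma, adjusted p = 0.198). LOC111277427, basic proline-rich protein-like, had 9.53, 11.6 and 15.5 FPKM at YS, 22.1, 20.98 and 20.1 FPKM at MS and 0.786, 0.979 and 0.335 FPKM at RS. Here the MS libraries lay above the YS libraries by 0.76 ± 0.21 on the log2 scale, under the fold limit (limma, adjusted p = 0.0290).

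LOC111287652, stem-specific protein TSJT1-like, was the only member that rose at MS against YS. The family is named after a tobacco gene found in stems. The locus (NW_019168270.1, positions 13205140 to 13206771, minus strand) had 17.48, 21.5 and 15.8 FPKM at YS, 105, 104.7 and 101 FPKM at MS and 1.33 and 1.12 FPKM in RS libraries 01 and 02, with no listing in RS library 03. MS pulp had 5.66 times the mean FPKM of YS pulp, a log2 fold change of 2.45 ± 0.18 (limma, adjusted p = 0.000339). This call held in all 16 alternative fits. Its median rank among genes, counted from the highest FPKM, was 5392 at YS, 771 at MS and 19022 at RS. The other gene of the same name, LOC111278190, was highest at YS and lowest at MS: 360, 122 and 1168 FPKM at YS, 1.82, 2.22 and 1.68 FPKM at MS and 46.9, 48.8 and 6.83 FPKM at RS. It fell by 7.01 on the log2 scale at MS against YS (limma, adjusted p = 0.00102), so the TSJT1-like genes changed in opposite directions between these stages.

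Among members without a product name, abundance was highest for LOC111291428, the 3 RS libraries of which still held 137, 148 and 116 FPKM. It had 679.7, 1019 and 969.8 FPKM at YS and 467, 446 and 459.7 FPKM at MS. The median rank of this gene was 37 at YS, 134 at MS and 590 at RS, so it stayed among the abundant transcripts of ripe pulp. All MS libraries lay under all YS libraries, at a log2 fold change of -0.94 ± 0.21 (limma, adjusted p = 0.0135) that was within the fold limit. LOC111287575 was next, with 834, 1553 and 449.7 FPKM at YS, 343, 355 and 349.7 FPKM at MS and 66.3, 62.3 and 92.6 FPKM at RS. It and the aldolase gene were the 2 members with their highest RS value in library 03, and the difference at MS against YS did not pass (log2 fold change -1.26 ± 0.42, limma, adjusted p = 0.0530).

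LOC111279271 was not called at MS against YS. It had 359, 257 and 194 FPKM at YS, 318, 309.5 and 322 FPKM at MS and 32.3, 30.4 and 20.4 FPKM at RS. The MS and YS libraries overlapped, at a log2 fold change of 0.27 ± 0.25 (limma, adjusted p = 0.415), and the ratio to the highest RS library was 6.02. LOC111295545 overlapped likewise at a lower level, with 16.6, 12.6 and 12.5 FPKM at YS, 14.8, 15.2 and 16.9 FPKM at MS and 1.24, 1.33 and 0.719 FPKM at RS. LOC111299173 overlapped too, with 213, 93.04 and 53.0 FPKM at YS, 172, 165 and 167 FPKM at MS and 16.5, 14.1 and 9.76 FPKM at RS. The same held for LOC111310142, which had 90.2, 249 and 148 FPKM at YS, 94.8, 97.9 and 93.8 FPKM at MS and 24.2, 24.8 and 8.47 FPKM at RS.

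LOC111285613 had its highest level at MS. It had 184, 136 and 88.9 FPKM at YS, 314, 313 and 313 FPKM at MS and 21.4, 20.2 and 8.39 FPKM at RS. The MS libraries were all above the YS libraries, at 1.26 ± 0.28 on the log2 scale, which was within the fold limit (limma, adjusted p = 0.0128).

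The comparison of MS with YS is the only one between stages that the selection did not use directly, although the floor of 5 FPKM in both stages bars genes that were near 0 in either. A gene was called when its log2 fold change, on log2(FPKM + 1), was beyond 1.5 in either direction with an adjusted p under 0.05 over all 21598 tested genes. All 38 members were tested, which the floor of the rule already ensures. By this test 1 member rose, or 2.63% of them, against 5.43% of all tested genes, and 6 fell, or 15.8%, against 10.2% of all tested genes. Among the 8748 genes that share the floor, 4.76% rose and 5.90% fell. The median log2 fold change was -0.63 over the members, 0.06 over all tested genes and 0.12 over the genes at the floor. With the near-identical MS libraries averaged to 1 sample, 1 of the 6 falls still passed, LOC111302722, and 1.39% of all tested genes rose and 2.90% fell.

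Without a fold limit, all MS libraries lay above all YS libraries in 8 members, below them in 17 and overlapped them in 13. Over all tested genes the MS libraries lay above in 31.3% and below in 27.2%, and over the genes at the floor in 34.2% and 22.6%. Of the 8 members with MS above YS, 6 were named ones. Over the 475 tested genes with a product name, MS lay above YS in 32.0%. The named members are all in the study's list of falls from MS to RS, whereas the 475 also include genes from its other lists. LOC111277239 is in the study's list of rises from MS to RS as well. These figures are therefore not like for like.

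**Figure D3:**
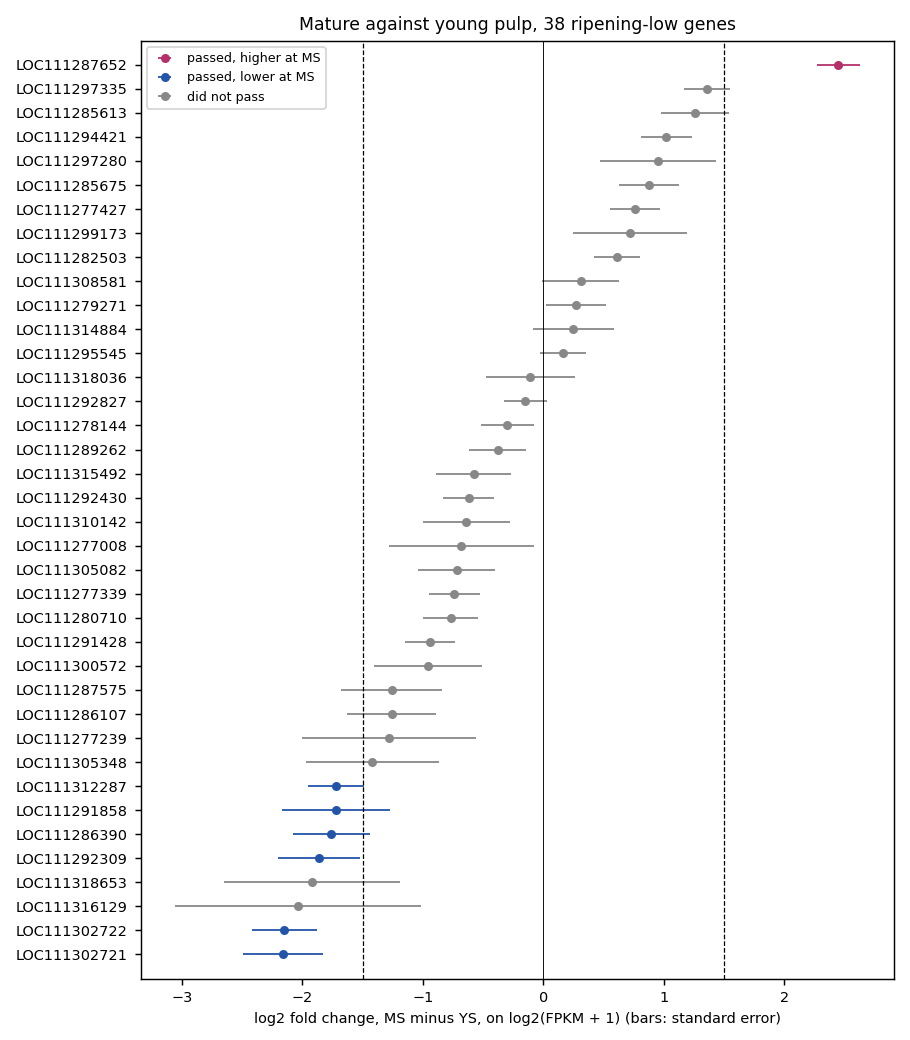
Log2 fold change, MS minus YS, on log2(FPKM + 1) for the 38 ripening-low genes, with bars of 1 standard error from limma (3 MS and 3 YS libraries) and dashed lines at the limits of 1.5 in either direction. The 1 gene that rose stands apart at 2.45, and the 6 that fell lie between -2.16 and -1.72.

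The 6 members that fell at MS against YS went down in steps, with intermediate levels at MS and their lowest at RS. For these, every MS library was below every YS library, so in the libraries at hand the lower level was seen before RS. Whether this holds beyond them cannot be decided, because the near-identical MS libraries may not show the scatter between fruits. LOC111312287 had 381, 348 and 569.6 FPKM at YS, 128, 127 and 128 FPKM at MS and 24.7, 27.9 and 10.4 FPKM at RS (log2 fold change -1.72 ± 0.23, limma, adjusted p = 0.00219). LOC111292309 had 235, 118 and 95.0 FPKM at YS, 34.7, 38.02 and 38.99 FPKM at MS and 10.8, 8.22 and 5.66 FPKM at RS (log2 fold change -1.86 ± 0.34, limma, adjusted p = 0.00656). In LOC111286390 the values were 144, 81.7 and 192 FPKM at YS, 37.0, 39.7 and 37.5 FPKM at MS and 9.75, 10.6 and 6.76 FPKM at RS (log2 fold change -1.76 ± 0.32, limma, adjusted p = 0.00621). In each of these genes MS and YS libraries did not overlap, and the MS libraries differed far less among themselves than the YS libraries did.

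LOC111302722 and LOC111302721 are the only members that are direct neighbours in the order of reference genes. They lie on the plus strand of scaffold NW_019167882.1, at positions 140730 to 147114 and 63520 to 67310, with a gap of 73419 bp. LOC111302722 had 117, 169.7 and 83.1 FPKM at YS, 25.7, 26.5 and 25.3 FPKM at MS and 7.68, 7.36 and 7.18 FPKM at RS (log2 fold change -2.15 ± 0.27, limma, adjusted p = 0.00192). LOC111302721 had 58.5, 138 and 70.6 FPKM at YS, 17.15, 17.4 and 18.9 FPKM at MS and 1.96, 1.86 and 1.64 FPKM at RS (log2 fold change -2.16 ± 0.33, limma, adjusted p = 0.00342). In both, YS library 02 was the highest and the RS libraries were close together in FPKM, although library 03 was lower in most genes. The ratio of the lowest YS or MS library to the highest RS library was 3.30 in LOC111302722 and 8.73 in LOC111302721. After division by size factors it was 1.46 and 4.34. The next gene, LOC111302723 on the minus strand, had its highest level at MS, with 48.7, 104 and 44.4 FPKM at YS, 126, 125 and 125 FPKM at MS and 30.1, 34.5 and 20.04 FPKM at RS, and was no member.

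A second pair lay 24615 bp apart on the minus strand of NW_019168470.1 with 2 genes between. LOC111291858, listed as a transcribed pseudogene in the second assembly, had 54.6, 14.2 and 37.3 FPKM at YS, 8.92, 8.76 and 8.36 FPKM at MS and 2.65, 2.50 and 1.04 FPKM at RS. It fell at MS against YS (log2 fold change -1.72 ± 0.45, limma, adjusted p = 0.0233), a call lost in 8 of the 16 alternative fits. Its partner LOC111292430 had 10.2, 12.5 and 7.65 FPKM at YS, 5.82, 6.38 and 6.09 FPKM at MS and 1.22, 1.44 and 0.0954 FPKM at RS. LOC111291856, which lies between them, was lowest at MS and not at RS, with 30.1, 36.4 and 27.9 FPKM at YS, 4.78, 4.81 and 4.51 FPKM at MS and 8.90, 7.45 and 7.31 FPKM at RS. For neighbours, the log2 ratio of RS to the mean of YS and MS was taken with 1 FPKM added to each mean. Over the 81 tested genes within 2 places of a member its median was -0.53, against -0.45 over all tested genes. Most neighbours thus did not share the low RS level.

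The remaining members were spread over the genome. The 38 genes lay on 23 scaffolds, with at most 4 on any, and no member was overlapped by another listed reference gene. Their spans ran from 418 to 23641 bp, with a median of 3360 bp, against 3905 bp over all tested genes. Of the 36 members matched in the RefSeq table by symbol, 32 were protein-coding, or 88.9%, against 88.4% of the tested genes matched. The others were 1 lncRNA, 1 pseudogene and 2 transcribed pseudogenes. The lncRNA, LOC111292827, had overlapping YS and MS libraries, with 18.4, 24.4 and 21.5 FPKM at YS, 20.8, 17.8 and 18.8 FPKM at MS and 4.98, 3.02 and 2.30 FPKM at RS.

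Levels at YS varied more among members than among other genes. The ratio of highest to lowest YS library had a median of 2.29 in members and 1.78 in genes at the floor, and reached 22.8 in LOC111316129, which had 8.91, 203 and 20.4 FPKM at YS, 8.89, 6.59 and 7.21 FPKM at MS and 0.793, 1.31 and 0.124 FPKM at RS. The highest YS library was library 02 in 57.9% of members, against 37.6% of genes at the floor. LOC111318653 differed, with YS library 01 at 143 FPKM and libraries 02 and 03 at 22.0 and 18.02 FPKM. Its log2 fold change at MS against YS was -1.92 ± 0.73 and did not pass (limma, adjusted p = 0.0759). At MS the same ratio was 1.10 in members and 1.09 in genes at the floor.

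RS library 03 was the lowest RS library in 35 of 38 members, or 92.1%, and in 91.3% of tested genes listed in all RS libraries. Its FPKM over the mean of RS libraries 01 and 02 had a median of 0.462 in the 36 members it lists and 0.485 in 21114 tested genes. Library 03 was thus low in members to about the extent that it was low in most genes. Leaving it out gave the same number of members, 38, so no further gene met the rule. On this FPKM scale the highest RS value was in library 01 or 02 in 36 members. After division by size factors it was in library 03 in 16 members. Depth was thin for the lowest members: 11 had a mean coverage under 1 read per base in an RS library that lists them. LOC111277239 was under 1 in RS library 02, and the others of the 11 in RS library 03 only. Coverage at YS and MS was at least 12.1.

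**Figure D4:**
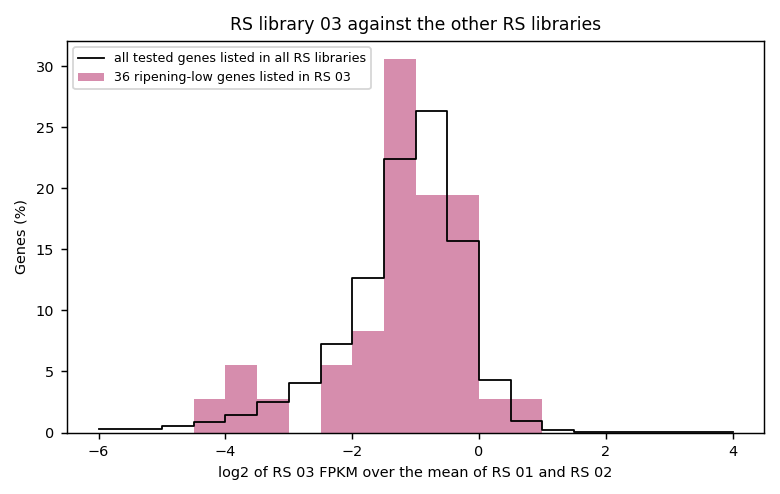
Log2 of FPKM in RS library 03 over the mean of RS libraries 01 and 02, as the percent of genes in each bin of 0.5. The bars (36 ripening-low genes) and the line (21114 tested genes, with 40 lower values placed in the lowest bin) both peak between -1.5 and -0.5; the 36 genes lie between -4.31 and 0.53, inside the wider range of the tested genes, and 2 of them are above 0.

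The scale of the RS libraries bears on every RS value given. Size factors were 1.05 and 1.03 in RS libraries 01 and 02 and 0.479 in RS library 03. Division by them raised library 03 and lowered the others. Over the members the median log2 ratio of mean FPKM was -2.91 for RS over MS and -3.80 for RS over YS, whereas over all tested genes it was -0.45 and -0.44. After division by median-ratio size factors, the members stood at -2.53 and -3.41 and the tested genes at 0.00 and -0.03. All 38 members kept every RS library below every YS and MS library on that scale. Of them 23 still met both thresholds, 13 came under the fold of 3, and 2 came under the floor only. The lowest ratio was then 1.46, in LOC111302722. Of the genes above, LOC111287652 kept a ratio of 11.3, LOC111277239 of 20.5, LOC111294421 of 10.4 and LOC111297280 of 7.98, whereas LOC111291428 and LOC111287575 came to 1.60 and 1.54.

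The files also hold loci assembled from the reads without a reference gene name, built from the same reads and so no independent evidence. Loci on the same strand covering at least 50% of the gene span were present for 35 to 37 members in YS and MS libraries, for 34 in RS libraries 01 and 02 and for 22 in RS library 03. For 34 members such a locus was found in all YS and MS libraries. In all 34 its lowest YS or MS value was above its highest RS value, and in 29 it was at least 3 times as high.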

How the data were processed

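Poly-A RNA of D24 durian pulp was sequenced as paired-end Illumina reads, and 1 gene table per library was deposited (9 libraries, 3 per stage). The FPKM, TPM and coverage columns were made by the authors with StringTie after HISAT2 mapping, according to the study's methods; the submitters' notes name Bowtie and TopHat, with FastQC and Trimmomatic. Versions and the genome build are not given in the sources used here. The deposited coverage is mean read depth per base, a signal never below 0. The deposited TPM values were treated as a score, because a table lists assembled loci as well as reference genes. No counts were used.

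Rows of reference genes were kept, and a gene missing from a library was set to 0. MS was compared with YS by limma 3.58.1 (R 4.3.3) on log2(FPKM + 1), two-sided, for genes with FPKM of at least 1 in at least 3 of 9 libraries, with Benjamini-Hochberg adjustment over all of them; fold changes on this scale understate those of low genes. An exact permutation test of 3 against 3 libraries cannot go below p = 0.1 and was not used. Alternatives changed the pseudocount, filter, scaling, unit, fit, selection thresholds and libraries. RS contrasts were not tested, because the rule used them.

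Members and gene lists were chosen with earlier results of these data known. Genes were named in the text if they were among the 10 highest by mean FPKM over YS and MS, the 10 highest by ratio to RS, up to 5 called in each direction at MS against YS, the members with a product name, or the 3 genes on either side of the fold limit. LOC111291858 and LOC111292430, LOC111292827, LOC111316129, LOC111318653, the genes at the floor, neighbouring genes and relatives were named after their values were seen. Product names came from the study's tables (691 genes), and gene types from a RefSeq table of another assembly, matched by symbol. Sequences were not used here.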

Additional observations from a re-analysis of the deposited data

How the results depend on the processing

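The number of ripening-low genes depended on the thresholds that define them. It was 38 as given, 144 at a fold of 2, 20 at a fold of 4, 74 at a floor of 2 FPKM, 22 at a floor of 10 FPKM and 23 after size factors, all 23 of them among the 38. Leaving out each library in turn gave 38 to 60 genes, with the most, 60, without YS library 03. At MS against YS, the count that rose was 1 to 2 and the count that fell 5 to 7 when a library was left out; without YS library 01, and likewise without YS library 03, 2 calls were lost and 3 gained. When 1 averaged sample stood for MS, no MS scatter was left, and the error came from the YS and RS libraries, RS library 03 included. The log2 fold change of LOC111302722 was still -2.15 there. Whether the falls hold for a lone MS sample cannot be decided, because its own scatter is unknown. The replicate block gave 1 that rose and 7 that fell. Whether the numbers 01 to 03 pair the libraries could not be told. Same-numbered YS and MS libraries correlated in their deviations at -0.0041, -0.0072 and -0.0057, and differently numbered ones at -0.0005 to 0.0075. The near-identical MS libraries leave little deviation that could match. Over single genes, 586 of the alternative values kept their call, 14 lost it, 8 gained one and 0 reversed. Coverage under 1, mostly in RS library 03, limits the lowest values.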
